A study of Mus musculus with 16 samples.

Results

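Toll-like receptors (TLRs) and the proteins that hand lipopolysaccharide (LPS) to them were followed in whole mouse liver across 4 groups of arrays. The set comprised 10 genes, chosen by name: Tlr1, Tlr2, Tlr3, Tlr4, Tlr5, Tlr7, Tlr9, Cd14, Ly96 and Lbp. Of these, 9 had a probe set with that gene symbol alone in the platform annotation, 1 each, and all 9 were among the 15908 genes tested. Tlr5 was matched to no probe set through that annotation and was not analysed here.

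The arrays came from male mice, 4 per group. WT C57Bl6/J livers were untreated or taken after 1 mg/kg LPS, and livers of Nfkb S534A mice in a C57Bl6/J background were untreated or taken after the same dose. The S534A animals were homozygous knock-ins in which a codon of exon 10 of the p65 gene was changed from serine to alanine. The line was made by gene targeting in PTL1 embryonic stem cells, of which 2 clones were injected, and its neomycin cassette was removed with a Flipase. The change is thus in the germ line and not restricted to hepatocytes. The p65 protein is a subunit of NF-kB, a transcription factor that TLRs activate, and the series asks how the substitution affects the liver's response to LPS. The series text names the LPS dose for the untreated S534A group too, and the sample titles, which call these samples untreated, were followed. The labels state neither the age of the mice nor the time between LPS and collection nor a vehicle injection. Nor do they state that each sample was a separate mouse, so every p-value reflects the spread among samples, and part of that spread may be technical.

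LPS is the outer-membrane glycolipid of Gram-negative bacteria. In the textbook pathway LBP, an acute-phase plasma protein made by hepatocytes, extracts LPS and passes it to CD14, which loads it onto MD-2, the product of Ly96, bound to TLR4. Dimerised TLR4 then signals through MyD88 at the cell surface and TRIF from endosomes. TLR2 with TLR1 or TLR6 senses bacterial lipopeptides, TLR5 senses flagellin, and TLR3, TLR7 and TLR9 sense double-stranded RNA, single-stranded RNA and unmethylated CpG DNA in endosomes. Kupffer cells, sinusoidal endothelium, infiltrating leukocytes and hepatocytes are all possible sources of these transcripts in liver. In whole-tissue RNA, fewer cells of a type and less RNA per cell cannot be told apart.

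After LPS the carriers of the LPS signal and 2 receptors for other ligands rose most. Cd14 and Tlr2 rose by more than 20-fold, Tlr3 by about 9-fold and Lbp by about 2.5-fold, in both genotypes, while Tlr4 itself did not pass the test in either. Ly96, Tlr7 and Tlr9 rose by 0.29 to 0.75 on the log2 scale in both genotypes. Tlr1 rose by 0.46 in WT and stood at 0.22, not past the test, in S534A. None of the genes passed the test between S534A and WT, before or after LPS.

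In counts, 8 of the 9 genes were higher after LPS in WT and 0 were lower, where 14.9% of all genes tested were called higher and 29.9% lower (limma, Benjamini-Hochberg adjusted p under 0.05). In S534A 7 of 9 were higher and 0 lower, where 14.2% of all genes were called higher and 31.2% lower. LPS-treated and untreated arrays did not overlap for 7 of the 9 genes in each genotype, against 38.3% of all genes in WT and 48.1% in S534A. The median change of the 9 genes was 0.75 in WT and 0.56 in S534A, and that of all genes was −0.05 and −0.03. The set was put together with earlier results of these data known, so these counts describe its genes and are no test of them as a set.

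The promoters of Tlr2 and Tlr3 are shown because these 2 receptors rose most among the TLRs and their sequences are at hand; that of Tlr9 is shown beside them as a receptor with a small rise. RefSeq promoter sequences (GRCm38.p6) were matched for 5 of the 10 genes, Tlr1, Tlr2, Tlr3, Tlr5 and Tlr9. The matching left out windows on 1 chromosome, so a gene of the set not named here may still have a promoter sequence. Each line below holds the 250 bases before 1 annotated start site on the strand of the gene, Tlr2 at chr3:83841609-83841858 (minus strand), Tlr3 at chr8:45410381-45410630 (minus strand) and Tlr9 at chr9:106222348-106222597 (plus strand). Capitals mark every match to the words searched.
Tlr2: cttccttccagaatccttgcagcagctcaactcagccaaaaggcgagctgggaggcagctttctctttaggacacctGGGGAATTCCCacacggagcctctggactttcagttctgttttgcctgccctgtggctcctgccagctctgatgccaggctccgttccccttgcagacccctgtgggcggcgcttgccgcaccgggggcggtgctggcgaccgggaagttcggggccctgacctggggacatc
Tlr3: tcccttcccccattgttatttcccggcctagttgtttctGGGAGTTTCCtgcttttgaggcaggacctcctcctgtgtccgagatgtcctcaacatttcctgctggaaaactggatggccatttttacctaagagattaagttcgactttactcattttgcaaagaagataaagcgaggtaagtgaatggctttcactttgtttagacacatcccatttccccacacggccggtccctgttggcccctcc
Tlr9: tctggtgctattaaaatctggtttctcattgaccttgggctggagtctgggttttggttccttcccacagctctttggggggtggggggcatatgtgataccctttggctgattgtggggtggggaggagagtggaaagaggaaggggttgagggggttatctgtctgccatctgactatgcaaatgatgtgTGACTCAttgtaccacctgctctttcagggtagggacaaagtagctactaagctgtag

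The words searched, on both strands, were the NF-kB consensus, ISRE (GAAANNGAA), STAT (TTCNNNGAA), AP-1 (TGANTCA) and C/EBP (TTNNGCAAT). The Tlr2 window held 2 overlapping NF-kB matches, GGGGAATTCC from 173 to 164 bases and GGGAATTCCC from 172 to 163 bases before the start. The Tlr3 window held 1, GGGAGTTTCC, from 211 to 202 bases before it. The NF-kB consensus was found in 3.90% of the 32851 RefSeq promoter windows of this length. The Tlr9 window held 1 AP-1 word, 58 to 52 bases before the start, which 6.75% of windows hold, and 1 of the 2 Tlr1 windows held a STAT word, which 7.02% of windows hold. The first Tlr1 window and the Tlr5 window held none of the words, ISRE stood in 7.13% and C/EBP in 1.93% of all windows, and neither stood in a window of these 5 genes. A match describes these letters and not a bound site, and no binding was measured here.

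Lbp, the plasma carrier of LPS, stood at log2 levels of 11.61, 11.05, 11.69 and 11.55 on untreated WT arrays 1 to 4 and at 12.77, 12.70, 12.78 and 12.91 on LPS-treated WT arrays. The S534A arrays read 11.40, 11.21, 11.68 and 11.50 when untreated and 12.77, 12.93, 12.76 and 12.78 when treated. Every LPS-treated array lay above every untreated array, and the untreated arrays were the more scattered (SD 0.29 in WT and 0.19 in S534A, against 0.09 and 0.08 after LPS, n = 4 each). LPS raised it by 1.32 ± 0.12 (SE) in WT, or 2.49-fold (by limma, adjusted p = 1.56e-07), and 1.36 ± 0.12 in S534A, or 2.58-fold (adjusted p = 9.92e-08). Among all genes its rise ranked 509 in WT and 460 in S534A.

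Cd14, the membrane and soluble co-receptor that takes LPS from LBP, had the largest rise of the set. On untreated WT arrays its level was 6.49, 6.13, 6.46 and 6.92, and on LPS-treated WT arrays 10.83, 11.45, 11.35 and 11.29. For S534A the untreated readings were 6.80, 6.20, 6.54 and 6.33 and the treated ones 11.38, 11.10, 10.43 and 11.42. The groups were more than 3 log2 units apart, and LPS-treated S534A array 3 was the lowest of the 8 treated arrays. Cd14 rose by 4.73 ± 0.21 in WT, 26.5-fold (by limma, adjusted p = 1.34e-11), and by 4.62 ± 0.21 in S534A, 24.5-fold (adjusted p = 1.88e-11). That placed it 18 in WT and 21 in S534A among 15908 genes ordered by rise. Its spread within groups was wide, with a residual SD of 0.34 that was higher than in 96.7% of genes.

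Ly96, which encodes the LPS-binding partner of TLR4, moved little by comparison. Its level was 9.67, 9.15, 9.74 and 9.54 on untreated WT arrays and 10.12, 10.23, 9.73 and 9.96 after LPS, so that LPS-treated array 3 lay just below untreated array 3. In S534A the untreated arrays read 9.40, 9.22, 9.54 and 9.55 and the LPS-treated arrays 10.34, 9.90, 10.00 and 9.70, with no overlap. Its level increased by 0.49 ± 0.15 in WT (1.40-fold, with a limma adjusted p of 0.0125) and 0.56 ± 0.15 in S534A (1.47-fold, adjusted p = 0.00490). The WT call was lost without untreated WT array 2, the lowest of all (0.36, adjusted p = 0.0510).

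Tlr4, the signalling receptor for LPS, showed no rise or fall past the test. It stood at 5.63, 5.64, 5.85 and 6.14 on untreated WT arrays and at 5.67, 6.53, 5.78 and 5.97 on LPS-treated ones. Untreated S534A arrays read 6.10, 5.72, 5.85 and 5.91 and treated ones 6.00, 5.67, 5.81 and 5.69. All 4 groups overlapped, and the order of their means, from 5.79 in LPS-treated S534A through 5.82 in untreated WT and 5.89 in untreated S534A to 5.99 in LPS-treated WT, lay within their spread (SD 0.15 to 0.39). The change was 0.17 ± 0.16 in WT (95% interval −0.17 to 0.51, limma adjusted p = 0.444) and −0.10 ± 0.16 in S534A (−0.44 to 0.24, adjusted p = 0.650). These intervals bound a rise at 0.51 in WT and leave smaller changes undecided. The probe set exceeded the median of its array on only 1 of the 16 arrays, LPS-treated WT array 2. Signal over background was not assessed, so a low reading cannot be told apart from a probe set that responds weakly.

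**Figure D1:**
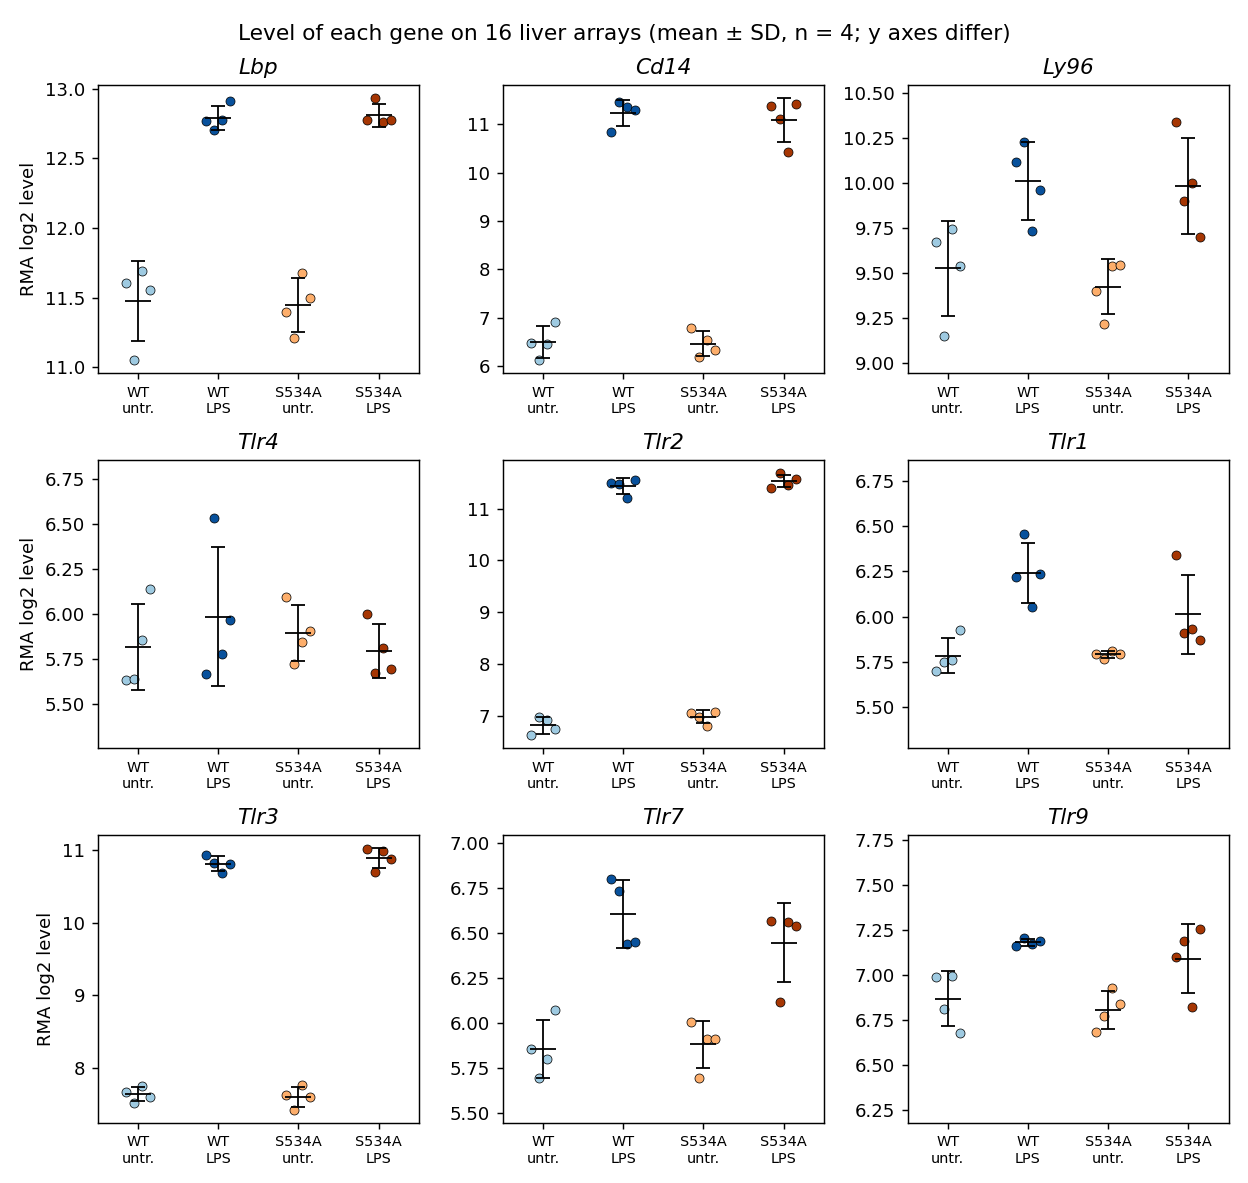
Log2 level (RMA) of each of the 9 measured genes on 16 liver arrays, by group (untr., untreated); each point is 1 array, and the horizontal bar with whiskers is the mean ± SD of 4 arrays. The y axes differ between panels. Cd14, Tlr2, Tlr3 and Lbp separate LPS-treated from untreated arrays in both genotypes, and the 4 groups of Tlr4 overlap.

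Among the other surface receptors Tlr2 changed most. Tlr2, the receptor for bacterial lipopeptides, stood at 6.63, 6.98, 6.92 and 6.73 on untreated WT arrays and at 11.50, 11.47, 11.21 and 11.55 after LPS. Untreated S534A arrays read 7.05, 6.98, 6.81 and 7.08 and treated ones 11.41, 11.69, 11.47 and 11.57. Arrays of a group lay close together (SD 0.12 to 0.16), and over 4 log2 units separated treated from untreated. LPS raised it by 4.62 ± 0.10 in WT, 24.5-fold (by limma, adjusted p = 1.24e-15), and 4.56 ± 0.10 in S534A, 23.5-fold (adjusted p = 1.53e-15), ranking 21 and 22 among all genes. Its promoter is the one above with overlapping NF-kB words.

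Tlr1, which pairs with TLR2, changed far less. Untreated WT arrays read 5.70, 5.75, 5.76 and 5.92 and LPS-treated WT arrays 6.22, 6.46, 6.05 and 6.23, without overlap. Untreated S534A arrays read 5.79, 5.76, 5.81 and 5.79 and LPS-treated S534A arrays 6.34, 5.91, 5.93 and 5.87. These groups did not overlap either, but 1 treated array stood well above the other 3. Tlr1 rose by 0.46 ± 0.10 in WT (1.37-fold, with a limma adjusted p of 0.00130) and stood at 0.22 ± 0.10 in S534A (adjusted p = 0.0862, and 0.0508 to 0.406 over 26 alternatives). The LPS effects did not pass as different between genotypes (−0.24 ± 0.14, 95% interval −0.54 to 0.07, adjusted p = 0.951). Tlr1 too exceeded the array median on only 1 array.

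Of the endosomal receptors Tlr3, the sensor of double-stranded RNA, rose most. Its level was 7.68, 7.53, 7.75 and 7.60 on untreated WT arrays and 10.93, 10.82, 10.68 and 10.81 after LPS. The S534A arrays read 7.63, 7.43, 7.77 and 7.60 when untreated and 11.01, 10.70, 10.98 and 10.88 when treated. The gap between treated and untreated arrays was wide beside the SDs of 0.10 to 0.14. This was an increase of 3.17 ± 0.09 in WT (limma adjusted p = 2.17e-14), and 3.29 ± 0.09 in S534A, 9.76-fold (adjusted p = 1.57e-14), at rank 87 and 75 among all genes.

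Tlr7, the sensor of single-stranded RNA, rose moderately. On untreated WT arrays it read 5.85, 5.69, 5.80 and 6.07 and on LPS-treated ones 6.80, 6.73, 6.44 and 6.45. In S534A it read 6.00, 5.70, 5.91 and 5.91 untreated and 6.57, 6.12, 6.56 and 6.54 after LPS, where array 2 stood apart below the other 3 and still above every untreated array. Its level increased by 0.75 ± 0.12 in WT (1.68-fold, with a limma adjusted p of 5.80e-05) and 0.56 ± 0.12 in S534A (1.48-fold, adjusted p = 0.000799). Tlr7 exceeded the array median on 7 of the 16 arrays, all of them LPS-treated.

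Tlr9, the sensor of CpG DNA, had the smallest rise that passed. Untreated WT arrays read 6.99, 6.81, 6.99 and 6.68 and LPS-treated WT arrays 7.16, 7.20, 7.17 and 7.19, the tightest group of this gene (SD 0.02). Untreated S534A arrays read 6.68, 6.77, 6.93 and 6.84 and LPS-treated ones 7.10, 7.19, 6.82 and 7.25. In S534A treated array 3 lay among the untreated arrays. LPS raised it by 0.31 ± 0.09 in WT (1.24-fold, with a limma adjusted p of 0.0114) and 0.29 ± 0.09 in S534A (1.22-fold, adjusted p = 0.0193). The WT call was lost with array quality weights (0.24, adjusted p = 0.0603). The S534A call was lost with arrays centred on their median (0.19, adjusted p = 0.0748) and without LPS-treated S534A array 2 (0.25, 0.0601) or 4 (0.23, 0.0729) or untreated S534A array 1 (0.25, 0.0650).

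**Figure D2:**
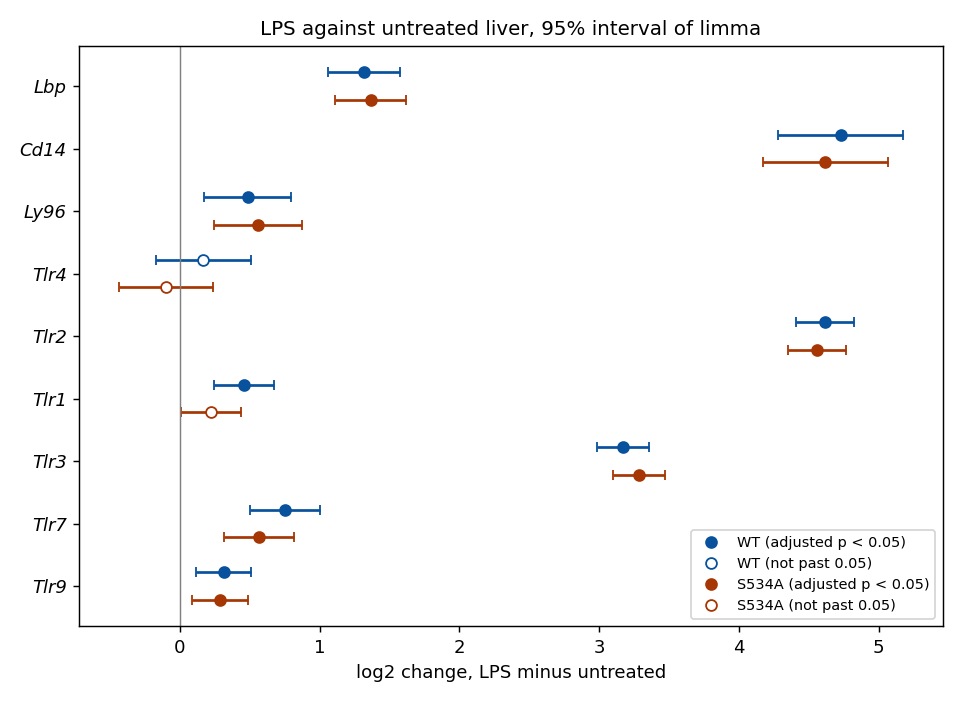
Change after LPS of each gene on the log2 scale (LPS minus untreated), in WT and S534A, with the 95% interval of the limma fit over 16 arrays; filled points passed an adjusted p of 0.05. Intervals of the 2 genotypes overlap for every gene, and the open points are Tlr4 in both genotypes and Tlr1 in S534A.

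S534A and WT livers were then compared directly, the question the series addresses. After LPS the differences ranged from −0.23 ± 0.10 for Tlr1 to 0.10 ± 0.10 for Tlr2, and 0 of 9 genes passed (limma adjusted p = 0.9996 for each), as did 0% of all genes tested. At an unadjusted p under 0.05 stood 477 of the 15908 genes, among them Tlr1 (limma, unadjusted p = 0.0378; adjusted p = 0.9996). Between these ends, after LPS, lay Tlr4 (−0.19 ± 0.16), Tlr7 (−0.16 ± 0.12), Cd14 (−0.15 ± 0.21), Tlr9 (−0.09 ± 0.09), Ly96 (−0.03 ± 0.15), Lbp (0.02 ± 0.12) and Tlr3 (0.08 ± 0.09). The 95% intervals reached from −0.59, for Cd14, to 0.31, for Tlr2, which bounds the size of any difference these arrays leave possible at that level. In untreated liver the differences ranged from −0.10 ± 0.15 for Ly96 to 0.16 ± 0.10 for Tlr2 (adjusted p = 0.689 to 0.998). Again 0 of 9 passed, with 0 of 9 and 1412 of all genes at an unadjusted p under 0.05 and 0.0126% of all genes called. The groups of the 2 genotypes overlapped for every gene of the set in both comparisons, where 2.03% of all genes did not overlap after LPS and 5.69% without treatment.

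The LPS effect itself did not pass as different between genotypes for any of the 9 genes (interaction, limma adjusted p = 0.951 to 0.993). Of all genes tested 0% passed, and 766 stood at an unadjusted p under 0.05, 0 of them in the set. The differences of LPS effects ran from −0.27 ± 0.23 for Tlr4 to 0.12 ± 0.12 for Tlr3. Those of Tlr1, Tlr7, Tlr9 and Ly96 lay between, at −0.24 ± 0.14, −0.19 ± 0.17, −0.03 ± 0.13 and 0.07 ± 0.21. For the strongly rising genes they were −0.11 ± 0.30 for Cd14 (95% interval −0.74 to 0.52), −0.06 ± 0.14 for Tlr2 (−0.36 to 0.23) and 0.05 ± 0.17 for Lbp (−0.31 to 0.41). For Tlr2 a difference of more than 0.36 in either direction therefore lies outside the interval, while for Cd14 one of 0.5 does not. A p that misses the threshold does not show that the genotypes respond alike.

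**Figure D3:**
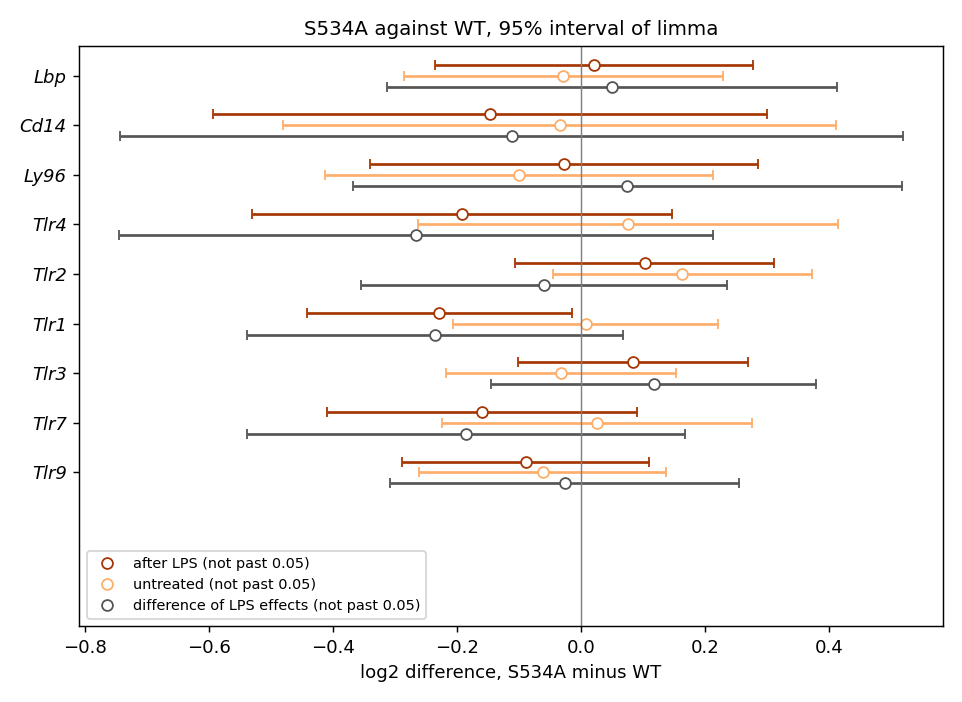
Difference between S534A and WT on the log2 scale after LPS, without treatment, and for the LPS effect itself, with 95% intervals of the limma fit. All points are open since none passed an adjusted p of 0.05; only the interval of Tlr1 after LPS, from −0.44 to −0.01, leaves out 0 before adjustment.

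The remaining TLRs of the mouse moved in both directions after LPS. Of 5 listed, 4 were measured: 2 rose and 2 fell in each genotype. Beside them, 14.9% of all genes were called higher and 29.9% lower in WT, and 14.2% and 31.2% in S534A. Tlr6 encodes the other partner of TLR2 and is a close relative of Tlr1. It stood at 4.90 to 5.12 on untreated and at 5.26 to 5.71 on LPS-treated WT arrays, and at 4.90 to 5.14 and 5.28 to 5.65 in S534A, with no overlap in either. It rose by 0.51 ± 0.10 in WT (limma adjusted p = 0.000647) and 0.43 ± 0.10 in S534A (0.00241). Its untreated readings were near those of Bpi (group means 5.01 to 5.05), a gene that the level filter removed. Tlr6 may thus have passed the filter only through its LPS-treated arrays, which favours a rise. Both calls were kept in the fit with no filter. Cross-hybridisation between the Tlr1 and Tlr6 probe sets was not assessed. Tlr13, which senses bacterial ribosomal RNA, rose by 0.61 ± 0.15 in WT (adjusted p = 0.00309) and 0.66 ± 0.15 in S534A (0.00170). Tlr12, a receptor for the parasite protein profilin, fell by 0.72 ± 0.10 in WT (adjusted p = 2.20e-05) and by 0.40 ± 0.10 in S534A (0.00438). Those effects did not pass as different (0.32 ± 0.15, adjusted p = 0.951). Tlr8, a relative of Tlr7, fell by 0.38 ± 0.12 in WT (adjusted p = 0.0171, and 0.0654 without untreated WT array 4 or 0.0541 without LPS-treated WT array 3) and by 0.45 ± 0.12 in S534A (0.00620). Tlr11 was not analysed here.

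Cd180 and Ly86 fell in both genotypes, in the direction opposite to Cd14 and Tlr2. They encode RP105 and MD-1, a complex related to TLR4 and MD-2 that lacks a signalling domain and is found on B cells and myeloid cells. Ly86 stood at 8.78 to 9.56 on untreated WT arrays and at 7.72 to 8.35 after LPS, with no overlap. It fell by 1.08 ± 0.18 in WT (limma adjusted p = 8.46e-05) and by 1.19 ± 0.18 in S534A (2.93e-05). Cd180 fell by 0.75 ± 0.13 in WT (adjusted p = 0.000129) and by 0.96 ± 0.13 in S534A (9.42e-06). The 2 B cell markers tested of 4 listed, Cd79a and Cd79b, were lower in each genotype, as were 7 of 8 Kupffer cell markers. Among all genes 29.9% were called lower in WT and 31.2% in S534A. The part of B cells and Kupffer cells in the fall of Cd180 and Ly86 was not tested. Cd79a read near Bpi after LPS (mean 5.07 in WT). It may thus have passed the level filter only through its untreated arrays, which favours a fall.

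Chaperones and endosomal processing factors, which fold TLRs, carry them to endosomes and cleave them, were mixed. Of 9 genes 2 rose, 3 fell and 4 did not pass in each genotype, and 3 of 9 lower is near the 29.9% of all genes called lower in WT and 31.2% in S534A. Of these, Lgmn was lost in WT without 3 arrays with shifted clock genes, WT arrays 1 and 3 and S534A array 3 of the untreated groups (−0.22, limma adjusted p = 0.110), and Cnpy4, at −0.30 ± 0.12 in WT (adjusted p = 0.05001, just short of the threshold), passed under 12 of 27 alternatives (down to 0.00454); both were named after their values were seen. Unc93b1, the carrier of the nucleic acid-sensing TLRs, rose by 0.49 ± 0.10 in WT (limma adjusted p = 0.000607) and 0.44 ± 0.10 in S534A. Lrrc59, also implicated in that transport, rose by 0.62 ± 0.14 and 0.66 ± 0.14. Cnpy3, a folding co-chaperone for several TLRs, fell by 0.72 ± 0.09 in WT (adjusted p = 7.57e-06) and by 0.43 ± 0.09 in S534A (0.00118), and the protease gene Ctss fell by 0.35 ± 0.10 and 0.38 ± 0.10.

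Adaptors, kinases and transcription factors downstream of the receptors rose in part. Of 19 listed 16 were tested, of which 7 rose and 1 fell in WT and 7 rose and 2 fell in S534A. The shares over all genes were 14.9% higher and 29.9% lower in WT, and 14.2% and 31.2% in S534A. Myd88, the adaptor of all TLRs here except TLR3, rose by 2.19 ± 0.08 in WT (4.55-fold) and 2.17 ± 0.08 in S534A. The kinases of the TRIF branch, Tbk1 (2.29 ± 0.09 and 2.19 ± 0.09) and Ikbke (2.61 ± 0.18 and 2.53 ± 0.18), and the interferon regulatory factor Irf7 (2.53 ± 0.13 and 2.76 ± 0.13) rose in WT and S534A (limma adjusted p = 6.90e-09 or lower for these genes). The gene that fell in both genotypes was Irf3 (−0.39 ± 0.07 in WT). The second gene called lower in S534A was Irak1, at −0.19 ± 0.07 (limma adjusted p = 0.0347) against −0.17 ± 0.07 in WT (0.0685), and the effects did not pass as different (interaction −0.03 ± 0.10, adjusted p = 0.989). The S534A call of Irak1 was lost without any 1 of the S534A arrays other than LPS-treated array 1, and without the same 3 arrays with shifted clock genes (adjusted p = 0.0515 to 0.0880), while its WT value passed under 6 of 27 alternatives (down to 0.0109). Both genes were named after their values were seen.

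Most inhibitors of TLR signalling rose as well. Of 8 listed 7 were tested, of which 5 rose and 1 fell in WT and 5 rose and 2 fell in S534A. Over all genes 14.9% were called higher and 29.9% lower in WT, and 14.2% and 31.2% in S534A. The falls were thus no more frequent than over all genes. Irak3, a kinase-dead relative of the IRAK kinases that restrains them, stood at 6.68 to 7.08 on untreated and 10.60 to 10.85 on LPS-treated WT arrays, and at 7.03 to 7.23 and 10.56 to 10.89 in S534A. It rose by 3.83 ± 0.10 in WT (14.2-fold) and 3.57 ± 0.10 in S534A (11.9-fold). Tnfaip3, the A20 ubiquitin-editing enzyme, rose by 3.26 ± 0.09 and 3.30 ± 0.09, and the RNase gene Zc3h12a by 0.89 ± 0.11 and 1.16 ± 0.11. Sigirr, a membrane inhibitor of the TLR and interleukin-1 receptor family, fell by 0.67 ± 0.08 in WT (limma adjusted p = 2.57e-06) and by 0.45 ± 0.08 in S534A (0.000172). Tollip, named after its values were seen, was the second gene called lower in S534A (−0.25 ± 0.08, limma adjusted p = 0.0189), against −0.19 ± 0.08 in WT (0.0654), and the effects did not pass as different (interaction −0.06 ± 0.12, adjusted p = 0.978). Its S534A call was lost without LPS-treated S534A array 3 (adjusted p = 0.0612) or untreated S534A array 2 (0.0551), and its WT value passed under 6 of 27 alternatives (down to 0.0137).

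Other genes that bind or handle LPS rose for 6 and fell for 1 of the 10 tested, in each genotype. Bpi lay below the filter, at group means of 5.01 to 5.05. Casp4, whose product senses LPS in the cytosol, rose by 2.81 ± 0.12 in WT (7.00-fold) and 2.59 ± 0.12 in S534A, and Gsdmd, the pore-forming substrate of that caspase, by 1.09 ± 0.09 and 1.18 ± 0.09. The scavenger receptor gene Marco rose by 1.28 ± 0.14 and 1.06 ± 0.14, and the integrin gene Itgam, part of complement receptor 3 on neutrophils and macrophages, by 1.22 ± 0.15 and 1.18 ± 0.15 (limma adjusted p = 8.29e-06 or lower for these 4). Pltp, a plasma lipid transfer protein, fell by 0.72 ± 0.17 and 0.61 ± 0.17 and was named after its values were seen. Itgb2, the integrin partner of Itgam and also named after its values were seen, rose by 0.55 ± 0.12 in WT and 0.36 ± 0.12 in S534A (limma adjusted p = 0.0220). That S534A call was lost with arrays centred on their median (0.27, adjusted p = 0.100), without LPS-treated S534A array 1 (0.34, 0.0548) or without untreated S534A array 2 (0.31, 0.0719). Over the 6 lists 48 genes were tested, of which 22 rose and 10 fell in WT and 22 rose and 12 fell in S534A. Among all genes tested 14.9% were called higher and 29.9% lower in WT, and 14.2% and 31.2% in S534A, so the falls in these lists were no more frequent than over all genes. None of the 48 passed between genotypes or in the interaction (limma adjusted p from 0.248). At an unadjusted p under 0.05 stood 1 of 48 after LPS, 6 without treatment and 3 in the interaction. Of all 15908 genes 477, 1412 and 766 did so, and the counts of the 48 are not read as a result about them.

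**Figure D4:**
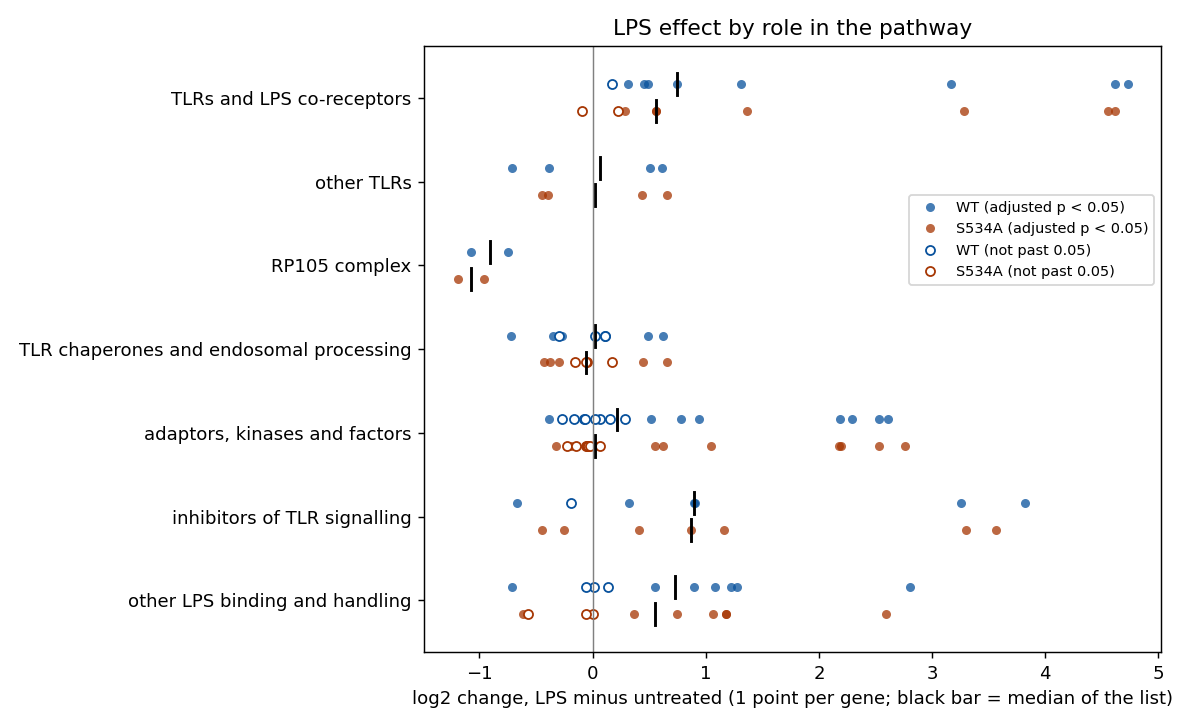
Change after LPS on the log2 scale by role, 1 point per gene, for the 9 receptors and co-receptors and the 48 tested genes of 6 lists, in WT (upper row of each role) and S534A (lower row); filled points passed an adjusted p of 0.05 and black bars are medians. The 2 RP105 complex genes lie below 0, and the receptors reach 4.73.

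Cell type markers moved with these changes. For scale, 14.9% of all genes tested were called higher and 29.9% lower in WT, and 14.2% and 31.2% in S534A. All 10 neutrophil markers were higher after LPS in each genotype, and their mean log2 level ran from 5.59 to 5.71 on untreated and from 7.25 to 7.91 on LPS-treated WT arrays (5.67 to 5.76 and 7.33 to 7.73 in S534A). Untreated Ly6g (mean 4.84 in WT and 4.86 in S534A) and Mmp8 (5.09 in S534A) read near or below Bpi (5.01 to 5.05), which the level filter removed. Such markers may have passed the filter only through their LPS-treated arrays, which favours a rise in this count. Of 8 Kupffer cell markers 7 were lower in each genotype, with mean levels of 9.32 to 9.80 and 8.22 to 8.57 in WT (9.05 to 9.59 and 7.91 to 8.34 in S534A). Of 7 sinusoidal endothelial markers 6 were lower and 1, Lyve1, higher in each, from 9.46 to 9.64 down to 8.07 to 8.50 in WT. Of 7 stellate cell markers 5 were lower. Dendritic cell markers had 1 of 5 lower in WT and 2 of 5 in S534A, near the shares of all genes called lower. T and NK cell markers had 0 of 2 either way. Monocyte markers had 1 of 2 tested higher in WT and both higher in S534A. Hepatocyte markers, which check the labelled tissue, were high on all arrays, with a mean level of 13.4 to 13.5 and Alb at 14.1. Of these 2 of 6 were called higher in WT, and 0 of 6 passed the threshold in either direction in S534A. The part of any cell type in the changes of the receptors was not tested.

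By a fixed measure of likeness, the root mean square difference between 2 genes' log2 values over the 16 arrays after centring each gene, the closest genes were found for each member. Tlr2 was closest to Slfn9 (0.17) and to Ddx60 (0.19), an interferon-induced helicase; Slfn9 rose by 4.66 in WT and 4.50 in S534A, and Ddx60 by 4.61 and 4.47. Cd14 was also closest to Slfn9 (0.26), then to the guanylate-binding protein gene Gbp9 (0.31), which rose by 4.63 and 4.47. Tlr3 was closest to Tnfaip3 (0.13) and Rnf213 (0.13). Lbp was closest to Fga (0.10), the fibrinogen alpha chain, and to Fgl1 (0.12), which is secreted by hepatocytes; Fga rose by 1.31 in WT and 1.49 in S534A, and Fgl1 by 1.10 and 1.28. The genes of smaller change were closest to Camk2d (0.07) and Arhgap30 (0.09) for Tlr1, Senp7 (0.11) and Csf2rb (0.11) for Tlr7, Kdm4a (0.09) and Gp9 (0.09) for Tlr9, St3gal1 (0.13) and Zfp518a (0.13) for Ly96, and Trmt11 (0.10) and Ttc27 (0.12) for Tlr4. These distances are descriptions dominated by the LPS step where that is large.

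Array medians over the whole table were 6.25 to 6.42 (log2), no value was missing and no 2 arrays were identical. Centring each array on its median shifted the median change of all genes after LPS in WT from −0.05 to −0.16 and in S534A from −0.03 to −0.13, and the share of calls that were higher from 33.3% to 22.1% and from 31.3% to 21.5%. Untreated arrays differed in clock genes. The score used was the mean log2 level of 5 clock and clock-output genes (the Per genes, Dbp and Tef) less that of Arntl. It spanned −1.77 to 3.47 over untreated WT arrays and −2.55 to 3.41 over untreated S534A arrays. LPS-treated arrays spanned −0.01 to 1.53 in WT and −0.70 to 1.63 in S534A. Without the 3 arrays at the low end of that score, WT arrays 1 and 3 and S534A array 3 of the untreated groups, the rises were 0.67 for Ly96 and 0.44 for Tlr9 in WT, and the same 8 genes in WT and 7 in S534A passed. That fit kept only arrays 2 and 4 of untreated WT. The part of the clock genes' state in the LPS effects was not tested beyond it.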

How the data were processed

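The deposited table held log2 expression values of 35556 probe sets on 16 arrays, per the file headers 1 column per sample; RMA is named in the submitters' processing notes, with no version given in the sources used here. Total RNA was column-purified and amplified with a whole-transcript kit, per the labels' protocols. Of the probe sets 21789 carried 1 gene symbol, 1621 several and 12146 none, and only the first kind was named; 21698 of these matched a RefSeq gene (GRCm38.p6) and 0 symbols changed. Values were used as deposited, with no further scaling.

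Probe sets above the 30th percentile of their array on at least 4 arrays were kept (26037). Each gene was represented by its probe set of highest mean over the 16 arrays, and 15908 genes were tested. Groups followed the sample titles. A limma model (version 3.58.1, R 4.3.3) with 4 group means, no covariates and 12 residual degrees of freedom gave LPS effects in each genotype, genotype differences and their interaction, with Benjamini-Hochberg adjustment over all genes and a threshold of 0.05. The median standard error was 0.099, a precision set by the number of arrays. Folds are 2 to the power of the log2 difference. The steps were tested on simulated data.

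The genes, lists, markers and promoter words were chosen with earlier results of these data known. Named were all members, the 2 closest genes to each, all other TLRs and RP105 genes, and up to 4 genes of each further list with the lowest p for LPS in WT; exceptions are stated. Of 55 listed pathway genes 48 were tested. Alternatives comprised filters, probe set rules, scalings, array weights, eBayes settings, a replicate block, fewer groups, and left-out arrays. Same-numbered arrays deviated together in no regular way (correlations −0.49 to 0.59), so the numbers were not taken to pair samples. Figures were drawn with matplotlib 3.10.9.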

Additional observations from a re-analysis of the deposited data

Results flagged for a closer look

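In 3 of the 36 gene-by-group sets of 4 arrays, 1 array stood far from the other 3 (a ratio of gap to range above Dixon's 95% critical value), where chance gives about 1 in 20. Tlr1 on LPS-treated S534A array 1 stood at 6.34, above the others, with a ratio of 0.870. Tlr7 on LPS-treated S534A array 2 stood at 6.12, below the others, with a ratio of 0.937. Lbp on that same array 2 stood at 12.93, above the others, with a ratio of 0.913. All 3 lie in the LPS-treated S534A group, and their part in the results was not tested beyond leaving each array out.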

How the results depend on the processing

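Across 11 alternatives and 16 fits that each left out 1 array, 0 of the LPS effects, genotype differences and interactions of the 9 genes and 48 pathway genes reversed a call. For the 9 genes 239 of 241 LPS effects in WT and 237 of 241 in S534A kept their side of the threshold; the exceptions are the Ly96 and Tlr9 values given in the report. Genotype differences and interactions of the 9 genes passed under none of these. With the filter at the array median Tlr1 and Tlr4 were not tested, and 7 of 7 genes were higher in each genotype. That count is partly set by the filter. It removed Tlr4, which passed in neither genotype, and Tlr1, which did not pass in S534A. Tlr7 met it only through LPS-treated arrays, which favours a rise. The share of all genes called under that filter is not given here. For the pathway genes 29 of 1292 LPS effects in WT gained a call and 3 lost one, against 6 and 13 of 1292 in S534A, and Map3k7 passed without treatment under array quality weights. Counts over all genes moved more. With array quality weights 3399 genes were called higher after LPS in S534A, in place of 2258; S534A and WT differed without treatment in 215 genes higher and 155 lower, in place of 1 and 1, and in the interaction in 2 higher and 1 lower, in place of 0 and 0. Without treatment the count was 3 lower with arrays centred on their median, 2 higher after a second quantile normalization, 2 higher and 2 lower with trended and robust eBayes, 0 and 0 with only the 2 groups compared, and 0 higher without the 3 arrays with shifted clock genes. Leaving out 1 array gave 0 to 4 higher and 0 to 6 lower there, and 0 to 2 higher and 0 to 1 lower in the interaction. The cause of these shifts was not tested. With the replicate number as a block (replicate block), 8 of the 9 genes rose in WT and 7 in S534A, as without it, and the genotype comparison without treatment had 0 higher and 0 lower. Over all alternatives the rise in WT ran from 4.60 to 4.87 for Cd14, 4.51 to 4.69 for Tlr2, 3.07 to 3.24 for Tlr3 and 1.17 to 1.49 for Lbp. Signal over background was not assessed, which limits what can be said of small changes in Tlr4 and Tlr1. The same limit holds for Tlr6 and Tlr8, which read below the median of every array, and for Tlr7, which did so when untreated.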
